A study of Mus musculus with 16 samples.

Results

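The lysosome is the acidic compartment in which cells digest proteins, glycans and lipids. Its lumen is acidified by the V-ATPase, a rotary proton pump built from a soluble V1 sector that hydrolyses ATP and a membrane Vo sector that carries protons. TFEB, TFE3 and MITF, transcription factors of the MiT family, bind E-box letters in the promoters of many lysosomal genes, and the kinase mTORC1 phosphorylates TFEB and TFE3 and keeps them in the cytoplasm. Nprl3 is a subunit of GATOR1, which inhibits mTORC1 when amino acids are scarce, and maturing erythroblasts use lysosomes and autophagy to clear organelles.

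The 38 genes described here were taken by name from the count table, in which each matched a single row of 55416. They comprise 3 MiT transcription factors, 4 lysosomal membrane proteins, 6 proteases, 6 glycosidases, 4 genes of lipid and sphingolipid degradation, and 15 V-ATPase genes, namely 5 of Vo, 8 of V1 and 2 accessory subunits.

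RNA was sequenced from sorted erythroid cells of 8 mouse embryos at E13.5, all taken from the foetal liver, with 1 library at each of 2 stages from every embryo. S1 cells are early progenitors (CFU-E) and S3 cells are basophilic erythroblasts, separated by the surface markers Ter119 and CD71. There were 4 WT embryos (numbers 0, 1, 5 and 8), 2 Het embryos (3 and 4) heterozygous for a deletion of the *Nprl3* promoter, and 2 KO embryos (2 and 9) homozygous for it. The deletion is constitutive, so that it was present in every tissue of the embryo, and it spares the α-globin enhancers that lie within the gene. Both Het embryos were male, while the KO group held 1 male and 1 female and the WT group 2 of each. The source field of the labels names an embryonic stem cell line, whereas the sample titles and the study's methods give sorted foetal liver cells. Of the markers, all 12 erythroid genes were higher at S3 than at S1 in WT and all 5 genes of early progenitors were lower.

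Total counts ran from 23331156 to 36035368 per library at S1 and from 20666044 to 37609502 at S3. Levels are given as CPM, a gene's counts relative to the counts of the library, after TMM scaling. *Nprl3* stood at 0.309 and 0.657 CPM in the KO libraries of S1, against 21.02 to 33.8 in WT. At S3 it stood at 109.8 and 116.9 CPM in KO and at 143.0 to 213.8 in WT. The paper describes spliced transcripts started at the enhancers that confound the measurement of *Nprl3* mRNA. Which part of the gene held the reads was not tested. Bulk counts do not tell a change in RNA per cell from a change in the mix of cells. Markers of other cells were counted for that reason. The summed level of 11 neutrophil genes was 120 to 1220 CPM in the WT libraries of S1, at 1449 and 1465 in Het and at 1488 and 1531 in KO, and at most 4.85 CPM in the WT libraries of S3. The summed level of 20 macrophage genes was 31.7 to 57.0 CPM in WT at S1 and 53.1 to 115.4 at S3. In KO it was 68.8 and 69.4 CPM at S1 and 24.1 and 45.5 CPM at S3. Without *Lyz2*, which had a log2 fold change of −0.69 from S1 to S3, the WT sum was 16.5 to 40.5 CPM at S1 and 42.4 to 98.5 at S3. In KO the sum without *Lyz2* was 16.9 and 24.1 CPM at S1 and 18.4 and 42.1 CPM at S3. Of these 20 genes, *Vsig4* and *Cd163* were at 0 in all WT libraries of S1 and *Vsig4* alone in those of S3. Of 14 hepatoblast markers 5 were higher at S3 than at S1 in WT, and of 9 megakaryocyte markers tested 2 were higher and 3 lower. Over all genes 30.6% were higher and 35.0% lower. Against WT at S3, 0 of 14 hepatoblast markers had a log2 fold change above 0 in KO (median −1.41) or Het (median −1.34). At S1 it was 1 of 14 in KO (median −0.97) and 1 of 14 in Het (median −2.40), and 0 passed the test. The part of these cells in the results was not tested.

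The sequences that bear on the module are the E-box letters in its promoters, since these are the letters that TFEB and its relatives recognise. In windows of 250 bases before to 50 bases after the transcription start (GRCm39, GENCODE canonical transcripts), CACGTG was present in 12 of 38 members (31.6%), against 10.4% of the 11155 protein-coding genes tested between the stages and 7.82% of all 21757 protein-coding genes. The longer TCACGTG, searched on both strands and containing the shorter letters, was present in 11 of 38 members (28.9%), against 5.92% of the genes tested. The members were chosen for their part in the lysosome, and many lysosomal genes are known to hold these letters. The excess is therefore not a result of these data. It lay in 8 of 20 promoters of hydrolases and lysosomal proteins, in 3 of 15 of V-ATPase genes and in 0 of 3 of the transcription factors. The letters were found on both sides of the comparison described next, in 5 of 16 members that were higher at S3 and in 5 of 13 that were lower. For these 10 members 30 bases around the first match are shown, read along the gene's strand on GRCm39, with the motif in capitals. The first 5 genes rose from S1 to S3 and the last 5 fell.
*Ctsb* (chr14:63359879-63359908, plus strand): gcggtcaagcaTCACGTGAcgaatcagccc
*Ctsd* (chr7:141941792-141941821, minus strand): tcttccttccccCACGTGAcctgtatccag
*Mcoln1* (chr8:3550436-3550465, plus strand): ggtcgcgcttgTCACGTGttcagttcaggc
*Atp6v0b* (chr4:117744545-117744574, minus strand): gtgcgcgggggTCACGTGgggtcggcgcat
*Lamp1* (chr8:13209088-13209117, plus strand): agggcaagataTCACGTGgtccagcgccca
*Gaa* (chr11:119158637-119158666, plus strand): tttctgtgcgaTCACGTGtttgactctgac
*Glb1* (chr9:114230086-114230115, plus strand): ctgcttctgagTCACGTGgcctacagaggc
*Gla* (chrX:133501964-133501993, minus strand): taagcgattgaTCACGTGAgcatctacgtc
*Naglu* (chr11:100960835-100960864, plus strand): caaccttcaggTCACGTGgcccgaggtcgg
*Atp6v1h* (chr1:5153300-5153329, plus strand): ctcagctgcggTCACGTGcggctgctcacg
*Lamp1* held 4 copies of CACGTG in its window, and *Atp6v0b*, *Atp6v1h*, *Gla* and *Mcoln1* held 2 each. The first copy began 64 bases before the start in *Gaa*, 34 bases before it in *Ctsd* and 14 bases after it in *Ctsb*. A match of letters is not evidence that a factor was bound there in these cells.

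Maturation from S1 to S3 changed most members, and the parts of the module moved apart. In WT, 16 of 38 members were higher at S3 and 13 were lower (edgeR's quasi-likelihood test, Benjamini-Hochberg adjusted p under 0.05). Over all 13514 genes tested 30.6% were higher and 35.0% were lower, so that a change between the stages was common among all genes. The V-ATPase genes mostly rose, with 11 of 15 higher and 1 lower (median log2 fold change 1.13), although with library totals 7 were higher and 5 lower. The 20 hydrolases and lysosomal proteins were divided, with 5 higher and 10 lower (median −0.42), and 5 of 6 glycosidases fell. The median over all members was 0.29 and that over all genes −0.08 on the log2 scale.

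**Figure D1:**
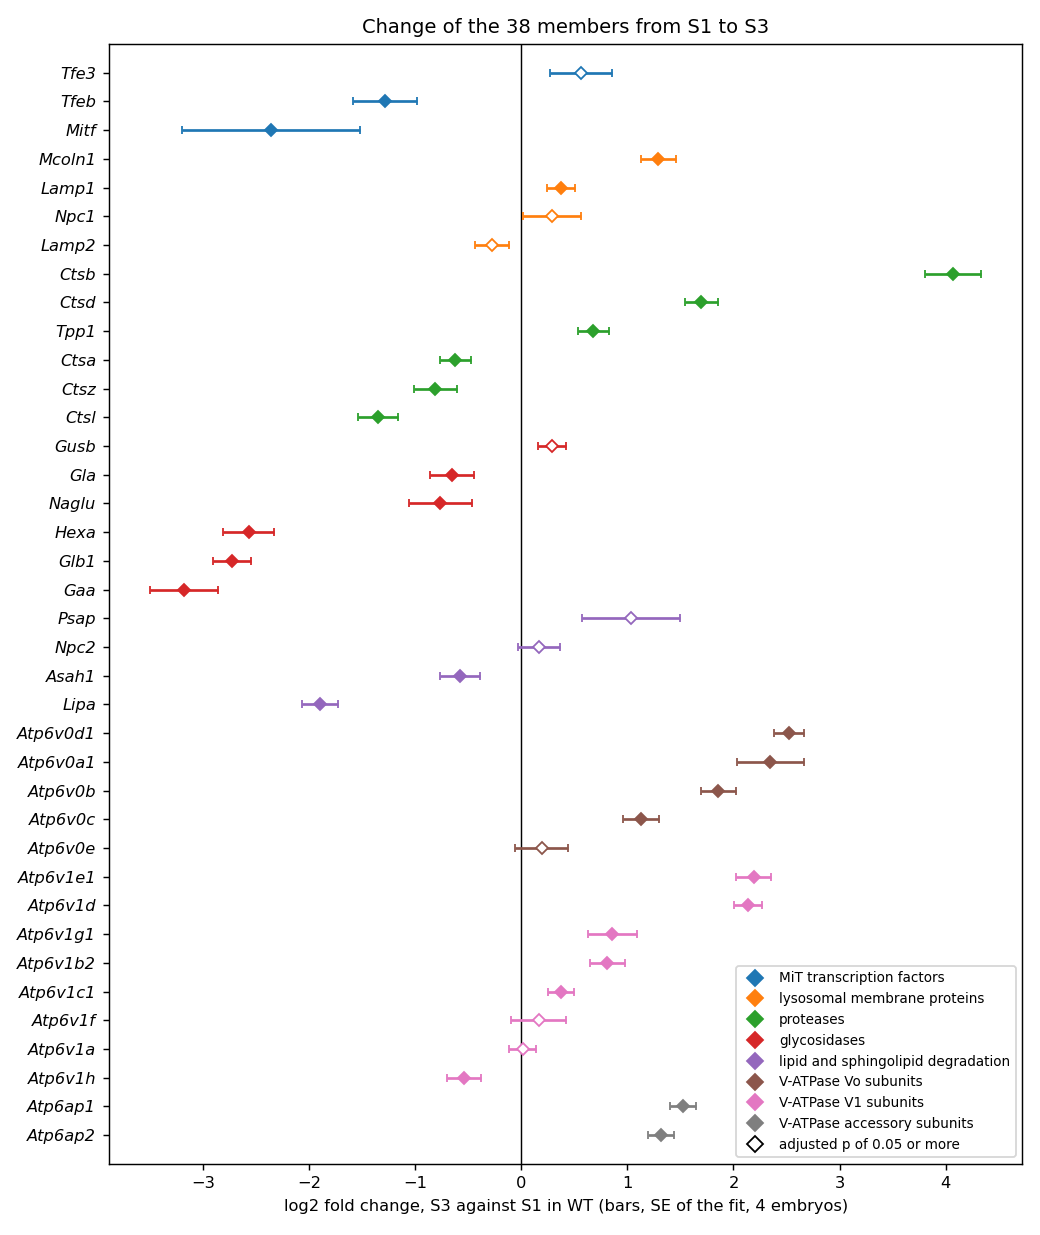
Log2 fold change of each member between S3 and S1 in WT (x axis), with bars for the SE of the fit over 4 embryos, grouped by role. Filled points passed an adjusted p of 0.05. *Ctsb* lies at 4.07 and *Gaa* at −3.18, and V-ATPase genes lie to the right of 0 except *Atp6v1h* with TMM scaling, while with library totals *Atp6v0e*, *Atp6v1a*, *Atp6v1b2*, *Atp6v1c1*, *Atp6v1f* and *Atp6v1g1* lie to the left of 0.

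The number of members called in each direction depends on the scaling. Globin genes took 0.074% to 1.07% of counts at S1 and 10.0% to 11.8% at S3, and leaving them out of the scaling gave 16 higher and 13 lower as before. With library totals in place of TMM the median of all genes moved to −1.15, and 9 members were higher and 22 lower, against 13.3% and 64.3% of all genes. Relative to the median of all genes, 24 of 38 members, including 14 of 15 V-ATPase genes and 9 of 20 hydrolases and lysosomal proteins, lay above it, a position that scaling moves little because it shifts all genes together. *Ctsb*, *Ctsd*, *Atp6v0a1*, *Atp6v0b*, *Atp6v0d1*, *Atp6v1d*, *Atp6v1e1*, *Atp6ap1* and *Atp6ap2* were called higher with each of these scalings.

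Of the transcription factors, *Tfeb* (chr17:48047955-48103344, mm39) was low at both stages. Its level at S1 was 3.45, 1.83, 4.05 and 3.39 CPM in WT embryos 0, 1, 5 and 8, and its level at S3 was 1.42, 1.33, 1.45 and 0.941 CPM. No S3 library reached the lowest S1 library, and the log2 fold change was −1.28 with a standard error (SE) of 0.30 (adjusted p = 0.0036, edgeR). These S3 levels rested on 13 to 38 counts per library.

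*Tfe3* (chrX:7628799-7641441), the relative with the higher level, went the other way without passing the test. It stood at 13.2, 7.01, 12.5 and 22.3 CPM at S1 and at 22.6, 15.8, 18.5 and 23.5 CPM at S3 in the same order of embryos. The groups overlapped through embryo 8, and the log2 fold change was 0.57 (SE 0.29, adjusted p = 0.11). Within every WT embryo it was higher at S3, and with the embryo as a block the log2 fold change was 0.65 (adjusted p = 0.012, edgeR). Without embryo 8 it was 0.82 (adjusted p = 0.023), and with library totals it was −0.48.

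*Mitf*, which drives pigment and mast cell genes, was close to the limit of detection. It had 9, 62, 20 and 12 counts at S1 and 0, 5, 3 and 2 at S3 in WT embryos 0, 1, 5 and 8. Its log2 fold change was −2.36 (SE 0.84, adjusted p = 0.030), the call was lost without embryo 5 (adjusted p = 0.086), and without embryo 1 the gene did not reach the count needed for testing. Of 8 mast cell and osteoclast markers 2 could be tested in the same comparison, and *Cpa3*, a mast cell protease, fell by 4.55 while *Acp5*, also a lysosomal phosphatase, rose by 2.88. The part of mast cells in the value of *Mitf* was not tested. Per kilobase of the deposited gene length, the mean levels in WT at S3 were 2.17 RPKM for *Tfe3*, 0.23 for *Tfeb* and 0.02 for *Mitf*.

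The gene with the largest rise was *Ctsb* (chr14:63359911-63383372), which encodes cathepsin B, a cysteine protease. It stood at 345, 209, 242 and 457 CPM in WT embryos 0, 1, 5 and 8 at S1 and at 4621, 4716, 5260 and 6182 CPM at S3. All S3 libraries lay far above all S1 libraries (log2 fold change 4.07, SE 0.26, adjusted p = 8.6e-07, edgeR). *Ctsb* supplied 16.2% to 26.2% of the raw counts of the 20 hydrolase and lysosomal protein genes in the WT libraries of S1, and 75.8% to 81.0% at S3. That share was 76.4% and 78.5% in the Het libraries of S3 and 73.2% and 73.7% in KO. *Ctsb* shares 774 exonic bases, 12.8% of its length, with *Fdft1* on the opposite strand, and the counting did not use strand. *Fdft1* had 38842 counts over the 16 libraries and *Ctsb* 859276. The macrophage genes, which together reached 115.4 CPM in a WT library, rose at S3 as well, with 11 of 15 tested higher, and their part in the rise of *Ctsb* was not tested.

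*Ctsd*, the aspartic protease cathepsin D, rose by 1.698 on the log2 scale (SE 0.16), from 126 ± 26.2 to 405 ± 24.4 CPM (mean ± SD, n = 4). It shares 34.4% of its length with a same-strand gene model that had 0 counts, so that reads over the shared bases were left out of its level. *Tpp1*, a tripeptidyl peptidase, rose by 0.68. The other proteases fell, by 0.62 for *Ctsa*, which also protects β-galactosidase, by 0.81 for *Ctsz* and by 1.35 for *Ctsl*. With library totals *Tpp1* was at −0.35 and was not called.

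With TMM scaling, the summed level of the 20 hydrolase and lysosomal protein genes went from 1484 ± 222 to 6661 ± 730 CPM (SD, n = 4) in WT. Without *Ctsb* the sum was 1171 ± 130 at S1 and 1466 ± 70.8 at S3. Without *Ctsb* and *Ctsd* it was 1046 ± 108 and 1061 ± 47.1 CPM, so that the rise of the sum lay in these 2 cathepsins.

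The glycosidases, which remove sugars from glycogen, glycolipids and glycosaminoglycans, held 3 of the 5 largest falls. *Gaa*, the acid α-glucosidase that degrades lysosomal glycogen, stood at 45.2, 26.3, 50.02 and 77.3 CPM in WT embryos 0, 1, 5 and 8 at S1 and at 7.21, 5.69, 4.89 and 3.76 CPM at S3. Its log2 fold change was −3.18 (SE 0.32, adjusted p = 1.2e-05). *Glb1*, β-galactosidase, went from 21.3, 26.1, 23.3 and 26.3 CPM to 3.22, 4.50, 3.82 and 3.04 (log2 fold change −2.72, SE 0.18, adjusted p = 1.0e-06). *Hexa*, the α subunit of β-hexosaminidase, went from 25.4, 28.5, 30.9 and 21.7 CPM to 4.38, 4.96, 5.73 and 2.75 (log2 fold change −2.57, SE 0.24, adjusted p = 7.9e-06). None of these 3 genes had overlapping groups. *Gla* fell by 0.65 and *Naglu* by 0.76, and both calls were lost without embryo 0, 1 or 5. *Gusb*, β-glucuronidase, did not pass, with a log2 fold change of 0.29 (adjusted p = 0.083).

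Of the genes for lipid breakdown, *Lipa*, the acid lipase that frees cholesterol from its esters, went from 24.5, 32.1, 26.7 and 24.7 CPM to 7.64, 6.97, 6.50 and 7.89 (log2 fold change −1.90, SE 0.17, adjusted p = 5.7e-06). *Asah1*, acid ceramidase, fell by 0.57, a call that was lost without embryo 1 or 5. *Psap*, the precursor of the saposins, was at 75.9, 13.1, 79.9 and 112 CPM at S1 and at 141, 125, 162 and 140 CPM at S3. All S3 libraries were above all S1 libraries, but embryo 1 at S1 lay far below the others, and the log2 fold change of 1.04 (SE 0.46) did not pass (adjusted p = 0.071, edgeR). Without embryo 1 it was 0.75 (adjusted p = 0.00504), and with the embryo as a block 1.32 (adjusted p = 0.014). *Npc2*, which hands cholesterol to *Npc1*, was at 48.3 ± 11.6 and 54.5 ± 3.77 CPM (log2 fold change 0.17, adjusted p = 0.47).

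Neutrophil markers were lower at S3 as well, with 9 of 9 tested called. In WT embryos 8 and 0 their sum at S1 was 120 and 184 CPM, and in embryos 5 and 1 it was 1037 and 1220 CPM. The part of these cells in the falls of the glycosidases and other members was not tested.

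Among lysosomal membrane proteins, *Mcoln1*, the calcium channel TRPML1, rose by 1.29 (SE 0.17), from 14.6 ± 3.37 to 35.4 ± 1.44 CPM (SD, n = 4), a call that was lost with library totals. *Lamp1*, a major glycoprotein of the membrane, rose by 0.37, a call that was lost without embryo 0, 1 or 5 and that was reversed, at −0.66, with library totals. *Lamp2*, its homologue, had a log2 fold change of −0.28 (adjusted p = 0.14), and *Npc1*, the cholesterol transporter, of 0.29 (adjusted p = 0.37). *Npc1* was called higher without embryo 1, within which it changed by −0.77, and ran from 0.089 to 0.59 without 1 embryo.

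In the Vo sector of the V-ATPase, 4 of 5 genes rose. *Atp6v0d1*, which couples the rotor of Vo to V1, stood at 14.9, 12.6, 12.96 and 15.7 CPM in WT embryos 0, 1, 5 and 8 at S1 and at 78.4, 73.5, 80.0 and 89.3 CPM at S3. Its log2 fold change was 2.52 (SE 0.14, adjusted p = 4.2e-07), with little spread between embryos. *Atp6v0a1*, an isoform of the a subunit that anchors the pump to membranes, went from 33.7, 19.9, 29.4 and 65.9 CPM to 194, 147, 174 and 230 (log2 fold change 2.35, SE 0.32, adjusted p = 9.4e-05). *Atp6v0b* and *Atp6v0c*, which form the proton-carrying ring, rose by 1.86 and 1.13, and the call of *Atp6v0c* was lost with library totals. *Atp6v0c* has 2 pseudogenes in the annotation, with 2041 counts in all against its own 109094. *Atp6v0e*, a small membrane subunit, did not pass (log2 fold change 0.19, SE 0.25).

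In the V1 sector 5 of 8 genes rose and 1 fell. *Atp6v1e1*, part of the peripheral stalk, stood at 164, 168, 166 and 119 CPM in WT embryos 0, 1, 5 and 8 at S1 and at 621, 753, 698 and 747 CPM at S3 (log2 fold change 2.19, SE 0.17, adjusted p = 2.3e-06). *Atp6v1d*, the central shaft, went from 49.2, 51.8, 52.2 and 45.3 CPM to 191, 226, 234 and 220 (log2 fold change 2.14, SE 0.13, adjusted p = 7.9e-07). *Atp6v1g1*, *Atp6v1b2* and *Atp6v1c1* rose by 0.86, 0.81 and 0.37, but with library totals they were at −0.15, −0.22 and −0.65, the last of them called lower. The call of *Atp6v1c1* was also lost without embryo 0 or 5. *Atp6v1a*, the catalytic subunit, was at 66.9 ± 8.26 and 67.3 ± 5.66 CPM (SD, n = 4; log2 fold change 0.02, SE 0.13, adjusted p = 0.92), and with library totals it was at −1.01 and called lower. *Atp6v1f* was at 0.16 (adjusted p = 0.60), and *Atp6v1h*, a regulatory subunit, fell by 0.54, a call that was lost without embryo 0. The accessory subunits *Atp6ap1* and *Atp6ap2* rose by 1.53 and 1.32. With TMM scaling the sum over the 15 genes went from 1463 ± 106 to 3401 ± 250 CPM. The TMM factors were 1.39 to 1.46 in WT at S1 and 0.67 to 0.75 at S3. With library totals the median log2 fold change of the 15 genes was 0.11, against −1.15 over all genes.

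**Figure D2:**
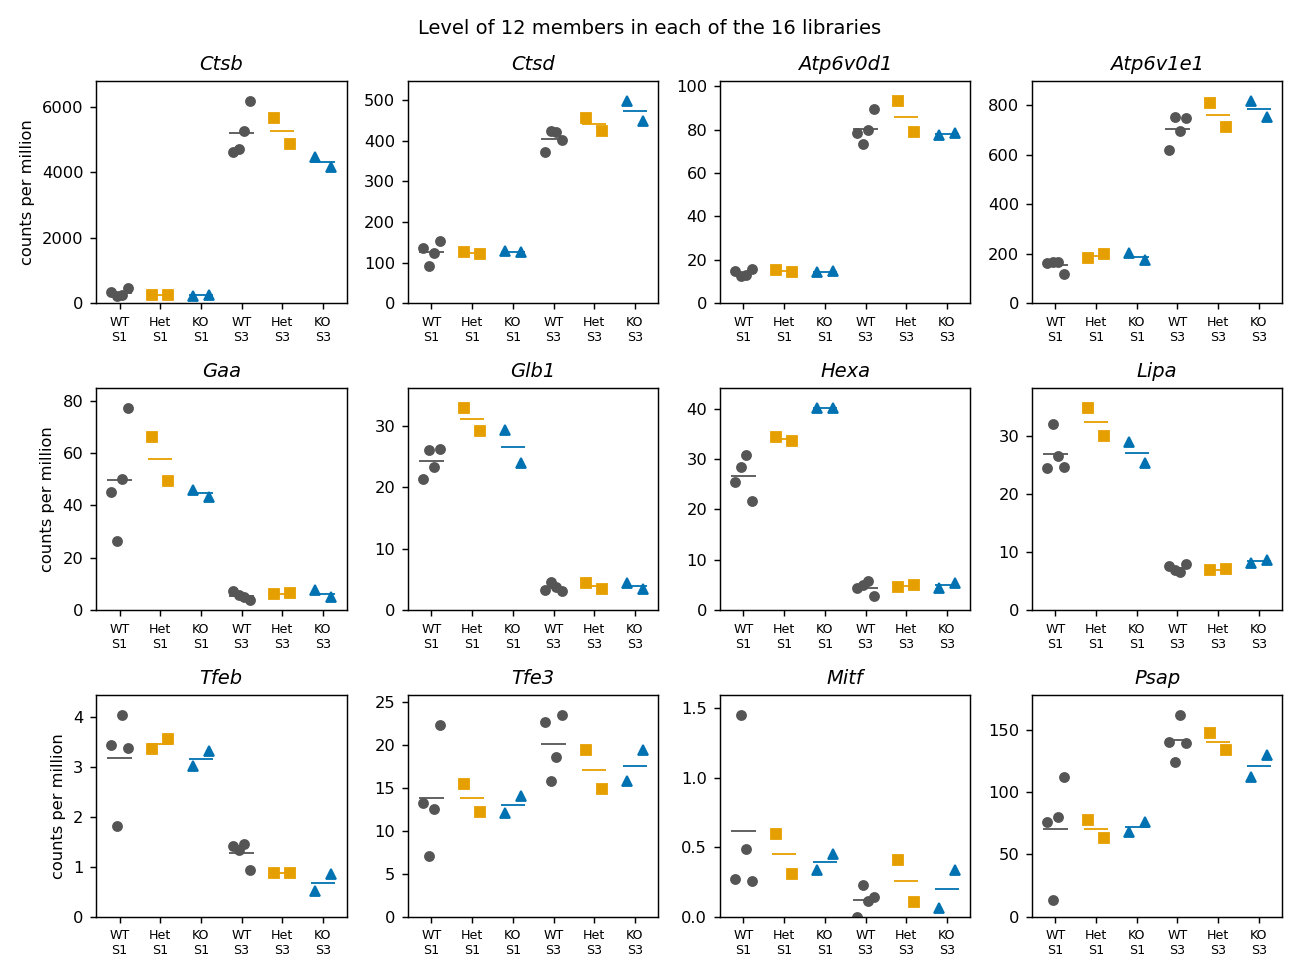
Level of 12 members (y axes, CPM from 0) in each of the 16 libraries, by genotype and stage, with 1 point per embryo and a line at the mean. *Ctsb* lies between 209 and 457 in WT at S1 and between 4621 and 6182 at S3, and *Psap* in WT embryo 1 at S1 lies at 13.1.

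Several V-ATPase subunits are encoded by more than one gene, and per kilobase of deposited gene length a single isoform of each led at S3. For the a subunit, *Atp6v0a1* and *Atp6v0a2* were at similar levels in WT at S1, at 5.68 ± 3.05 and 4.36 ± 1.84 RPKM (SD, n = 4). At S3 *Atp6v0a1* was at 28.4 ± 5.35 RPKM while *Atp6v0a2* was at 3.30 ± 0.10 (log2 fold change −0.38, adjusted p = 0.18). *Tcirg1*, the a3 isoform best known from osteoclasts, fell from 1.28 ± 0.18 to 0.28 ± 0.13 RPKM (log2 fold change −2.16, SE 0.33). *Atp6v0a4*, known from kidney, had 5 to 18 counts in the WT libraries of S1 and 0 in all libraries of S3. Of the other subunits, *Atp6v0d2*, *Atp6v0e2*, *Atp6v1b1*, *Atp6v1c2*, *Atp6v1e2* and *Atp6v1g3* stayed below 0.12 RPKM in every WT library, and *Atp6v1g2* was at 0.43 ± 0.14 and 0.34 ± 0.15 RPKM.

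**Figure D3:**
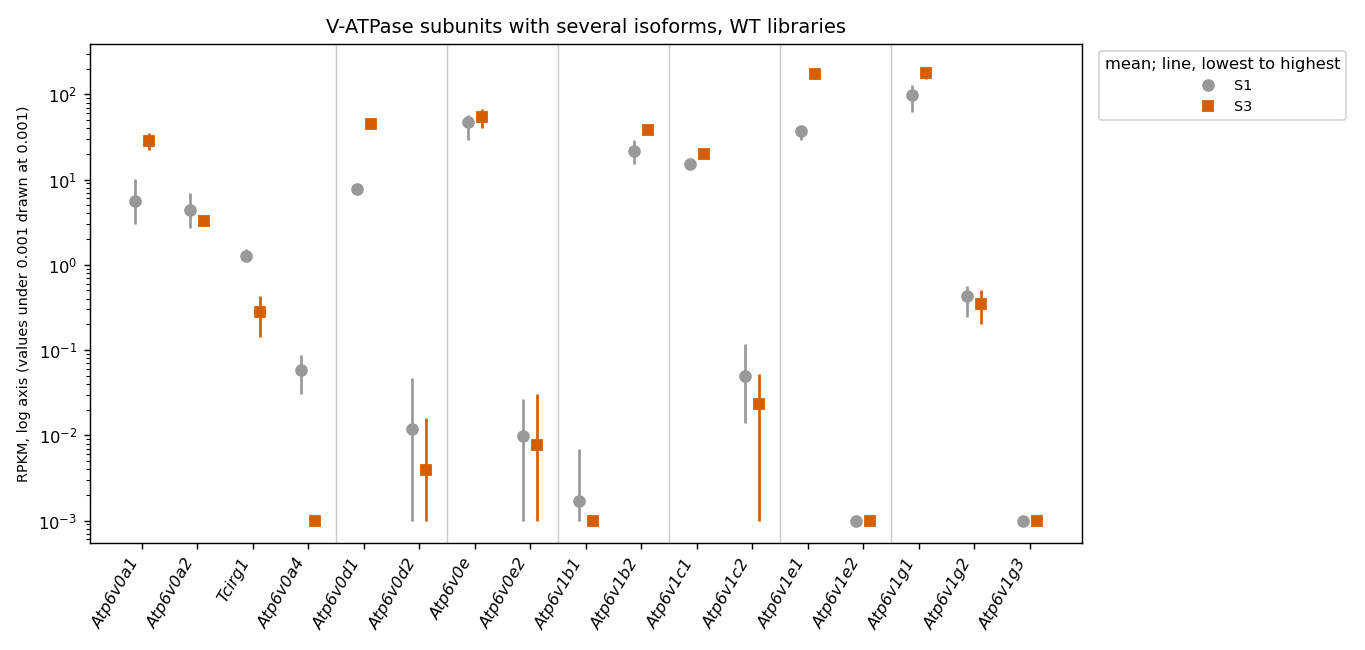
Level per length (y axis, RPKM on a log axis) of V-ATPase subunits with more than 1 gene in WT, with a symbol at the mean of 4 libraries and a line from the lowest to the highest. *Atp6v0a1* lies at 5.68 at S1 and 28.4 at S3, while *Atp6v0a2* lies at 4.36 and 3.30.

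The order of levels per length also changed between the stages. In WT at S1 the highest members were *Lamp1* (110 ± 15.5 RPKM), *Ctsz* (99.3 ± 17.5), *Atp6v1g1* (98.9 ± 27.5) and *Atp6v1f* (92.2 ± 30.4), which did not differ beyond their spread. At S3 *Ctsb* led at 858 ± 118 RPKM, above *Atp6v1g1* (180 ± 27.0), *Ctsd* (172 ± 10.4) and *Atp6v1e1* (172 ± 14.8). The value of *Ctsd* is too low for this order, since it is divided by the full length while reads over 34.4% of it were left out. *Ctsz* had moved from rank 2 to rank 11 of 38 and *Gaa* from rank 22 to rank 33.

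The Het and KO embryos did not enter the fit of the stages, and their own S1 and S3 libraries gave the same directions for the called members. Of the 16 members called higher in WT, 16 were higher at S3 within each of these 4 embryos, and of the 13 called lower, 13 were lower within each. These directions are those with TMM scaling. How many of all genes called in WT kept their direction was not counted. The agreement is therefore not known to be particular to the members. *Ctsb* changed by 3.99 and 4.28 on the log2 scale in the KO embryos, by 4.20 and 4.57 in Het and by 3.74 to 4.50 in WT. *Atp6v0d1* changed by 2.41 and 2.43 in KO, by 2.43 and 2.61 in Het and by 2.39 to 2.62 in WT. *Tfeb* changed by −2.36 and −1.85 in KO, by −1.91 and −1.83 in Het and by −1.74 to −0.43 in WT. The KO values lay inside the WT range for *Ctsb* and *Atp6v0d1*, while for *Tfeb* all 4 Het and KO values lay below the WT range. The same held for *Naglu*, at −1.12 and −1.50 in KO, −1.53 and −1.37 in Het and −0.90 to −0.26 in WT. How often this occurs over all genes was not counted. Both genes had low counts, and the interaction given below called no member.

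**Figure D4:**
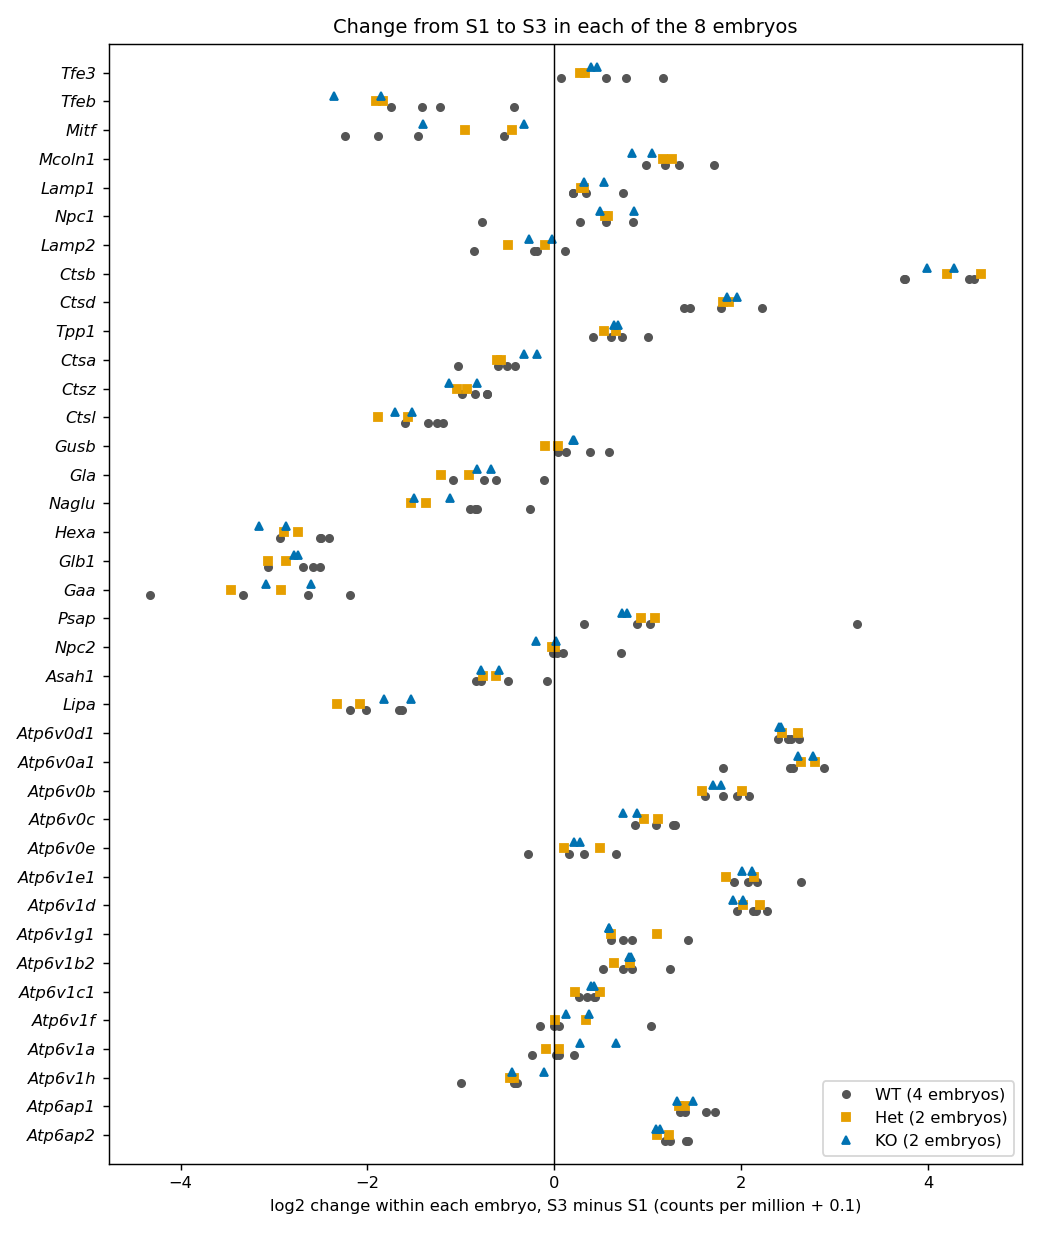
Change of each member within each embryo (x axis, log2 of CPM plus 0.1, S3 minus S1), with 1 point per embryo and genotype shown by colour and shape. The 29 members called in WT lie on the same side of 0 in all 8 embryos, of which the WT embryos gave the calls. *Tfeb* in KO lies at −2.36 and −1.85.

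The KO comparison asked whether the module differs where GATOR1 lacks Nprl3. At S3, 0 of 37 tested members passed in either direction, against 0.559% of 11804 genes (edgeR). Unadjusted p was under 0.05 for 2 members, against 1006 of the 11804 genes (edgeR). DESeq2 without a covariate called 0 members as well. The median log2 fold change was 0.09, against 0.01 over all genes, and it was −0.05 without KO embryo 2 and 0.19 without KO embryo 9. In 6 members both KO libraries lay above all WT libraries, against 9.18% of all genes, and in 3 they lay below, against 9.36%. The 6 were *Lamp2*, *Ctsa*, *Ctsd*, *Asah1*, *Lipa* and *Atp6v1a*, and the 3 were *Tfeb*, *Mcoln1* and *Ctsb*.

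The smallest p at S3 was that of *Atp6v1a*, the catalytic subunit. It stood at 65.2, 75.2, 61.8 and 67.0 CPM in WT embryos 0, 1, 5 and 8 and at 95.0 and 84.0 CPM in KO embryos 2 and 9. The libraries did not overlap, but the log2 fold change of 0.42 (SE 0.14) did not pass over all genes (adjusted p = 0.35, edgeR). With sex as a covariate it did, at adjusted p = 0.042 with edgeR and 0.017 with DESeq2. In these fits it was the 1 member called higher of 37, against 2.41% of all genes with edgeR and 2.61% with DESeq2. In Het it was at 58.6 and 62.8 CPM.

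*Ctsa* was at 46.7, 47.7, 45.5 and 32.9 CPM in WT and at 55.8 and 57.9 CPM in KO (log2 fold change 0.41, SE 0.17, adjusted p = 0.54). Without WT embryo 8, the lowest library, it was at 0.27. *Lamp2* was at 41.9, 35.1, 38.9 and 29.03 CPM in WT and at 47.2 and 44.9 CPM in KO (log2 fold change 0.36, SE 0.16, adjusted p = 0.60). Neither difference passed after adjustment over all genes, and of these only *Ctsa* had an unadjusted p under 0.05 (edgeR).

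Of the transcription factors, *Tfeb* at S3 was at 0.508 and 0.847 CPM in KO, below the lowest WT library at 0.941 CPM. The KO levels rested on 8 and 15 counts, and the log2 fold change of −0.91 (SE 0.42) did not pass (adjusted p = 0.61). Without KO embryo 2 it was −0.61, and without KO embryo 9 −1.32. Both Het libraries, at 0.874 and 0.877 CPM, also lay below all WT libraries (log2 fold change −0.57, SE 0.36, adjusted p = 0.90). The comparisons share the WT libraries and so are not separate evidence. *Tfe3* was at 15.8 and 19.3 CPM in KO and 19.4 and 14.8 CPM in Het, within the WT range or just under it, and *Mitf* was too low to be tested at S3.

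*Ctsb* at S3 was at 4474 and 4183 CPM in KO, both below the lowest WT library at 4621 CPM (log2 fold change −0.25, SE 0.17, adjusted p = 0.79). The macrophage markers were lower in the same KO libraries. Of 15 tested, *Marco*, *Fcna* and *Lyz2* passed, with log2 fold changes of −2.58, −1.89 and −1.68. The 12 erythroid markers summed to 112100 and 116156 CPM in KO, below the WT libraries at 122490 to 150776, although 0 of 12 passed the test, and globin genes took 10.0% and 10.54% of counts in KO and 10.8% to 11.8% in WT. The part of the macrophage and erythroid markers in the differences of *Ctsb* and other members was not tested.

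At S1, 0 of 38 members passed in KO, against 0.00712% of 14039 genes (edgeR, with 0 members by DESeq2 as well). Unadjusted p was under 0.05 for 1 member, against 355 of the 14039 genes (edgeR). In 5 members both KO libraries were above all WT libraries, against 6.57% of genes, and in 0 below, against 3.26%. *Hexa* was at 25.4, 28.5, 30.9 and 21.7 CPM in WT and at 40.1 and 40.2 CPM in KO (log2 fold change 0.60, SE 0.20, unadjusted p = 0.019). *Naglu*, which degrades heparan sulphate, was at 2.25, 1.97, 2.85 and 1.58 CPM in WT and at 3.14 and 3.06 CPM in KO (log2 fold change 0.53, SE 0.31). *Asah1* was at 15.3, 22.9, 25.1 and 18.1 CPM in WT and at 28.6 and 24.9 CPM in KO (log2 fold change 0.40, SE 0.25). The adjusted p of these 3 members was 1.0. *Tfeb* at S1 was at 3.02 and 3.32 CPM in KO, inside the WT range (log2 fold change 0.01, SE 0.35), *Tfe3* was at −0.06 and *Mitf* at −0.65 (SE 0.79).

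The neutrophil sums of single libraries at S1 stand beside these values. The WT libraries with the lowest *Hexa*, those of embryos 8 and 0, had neutrophil sums of 120 and 184 CPM. Embryos 1 and 5, with *Hexa* at 28.5 and 30.9 CPM, had sums of 1220 and 1037, and the KO libraries had 1488 and 1531 CPM. The libraries of embryos 0 and 8 also held the most globin of S1, at 1.07% and 1.00% of counts against 0.074% to 0.305% in the other 6 libraries. The 12 erythroid markers summed to 2272 to 7289 CPM in WT, to 1805 and 2968 in KO and to 2023 and 2158 in Het. *Naglu* did not follow the neutrophil sums in WT, as it was lower in embryo 1 than in embryo 0. The macrophage sum was 68.8 and 69.4 CPM in KO and 31.7 to 57.0 CPM in WT. Without *Lyz2* it was 16.9 and 24.1 CPM in KO and 16.5 to 40.5 CPM in WT. The part of neutrophils, of macrophages and of erythroid maturation in the values of *Hexa*, *Naglu* and *Asah1* was not tested.

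The Het embryos, which keep an intact allele, gave 0 of 37 members at S3, against 0.0% of 11746 genes, and 0 of 38 at S1, against 0.0% of 13818 genes (edgeR). No member had an unadjusted p under 0.05, against 373 of the 11746 genes at S3 and 589 of the 13818 at S1 (edgeR). DESeq2 without a covariate called 0 members at each stage. At S3 both Het libraries were above all WT libraries for 4 members, against 6.96% of genes, and below for 1, against 6.26%. At S1 they were above for 8, against 10.6% of genes, and below for 1, against 8.22%.

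At S3 the smallest p in Het was that of *Ctsl*, cathepsin L, at 16.6, 14.2, 13.1 and 11.1 CPM in WT and at 8.80 and 12.3 CPM in Het (log2 fold change −0.40, SE 0.21). Without 1 embryo *Ctsl* ran from −0.66 to −0.17. *Atp6v1g1* was at 171, 239, 219 and 188 CPM in WT and at 257 and 241 CPM in Het (log2 fold change 0.27, SE 0.15). *Atp6v0e* was at 149, 240, 251 and 172 CPM in WT and at 267 and 256 CPM in Het (log2 fold change 0.35, SE 0.21). The adjusted p of all 3 was 0.90. Both Het embryos were male, and with sex as a covariate 5 members were called higher in Het by edgeR, namely *Ctsz*, *Atp6v0c*, *Atp6v0e*, *Atp6v1f* and *Atp6v1g1*, and 6 by DESeq2. Of all genes 8.84% and 9.97% were called higher in these fits. In that fit *Atp6v0e* had a log2 fold change of 0.69 (adjusted p = 0.0028) and *Atp6v1g1* of 0.46 (adjusted p = 0.012). The Het group was then set against the 2 male WT embryos, 0 and 8, which had the lowest levels of both genes. At S3 the hepatoblast sum was 163 and 220 CPM in Het and 224 to 989 CPM in WT. The mast cell and osteoclast sum was 739 and 768 CPM in Het and 574 to 691 CPM in WT. The other marker sums of Het lay within the WT range. The part of these cells in the Het values was not tested.

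At S1 the smallest p in Het were those of 3 glycosidases. *Glb1* was at 21.3, 26.1, 23.3 and 26.3 CPM in WT and at 33.0 and 29.2 CPM in Het (log2 fold change 0.35, SE 0.17). *Gla*, the α-galactosidase that degrades globosides, was at 14.1, 14.9, 15.3 and 10.3 CPM in WT and at 18.1 and 18.2 CPM in Het (log2 fold change 0.40, SE 0.23). *Hexa* was at 34.5 and 33.6 CPM in Het (log2 fold change 0.34, SE 0.20). The adjusted p of all 3 was 0.90, and the neutrophil sum in these libraries was 1465 and 1449 CPM and the erythroid sum 2023 to 2158 CPM. *Tfeb* was at 3.37 and 3.57 CPM, *Tfe3* at 15.4 and 12.2 and *Mitf* at 0.593 and 0.307, all inside the WT ranges.

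**Figure D5:**
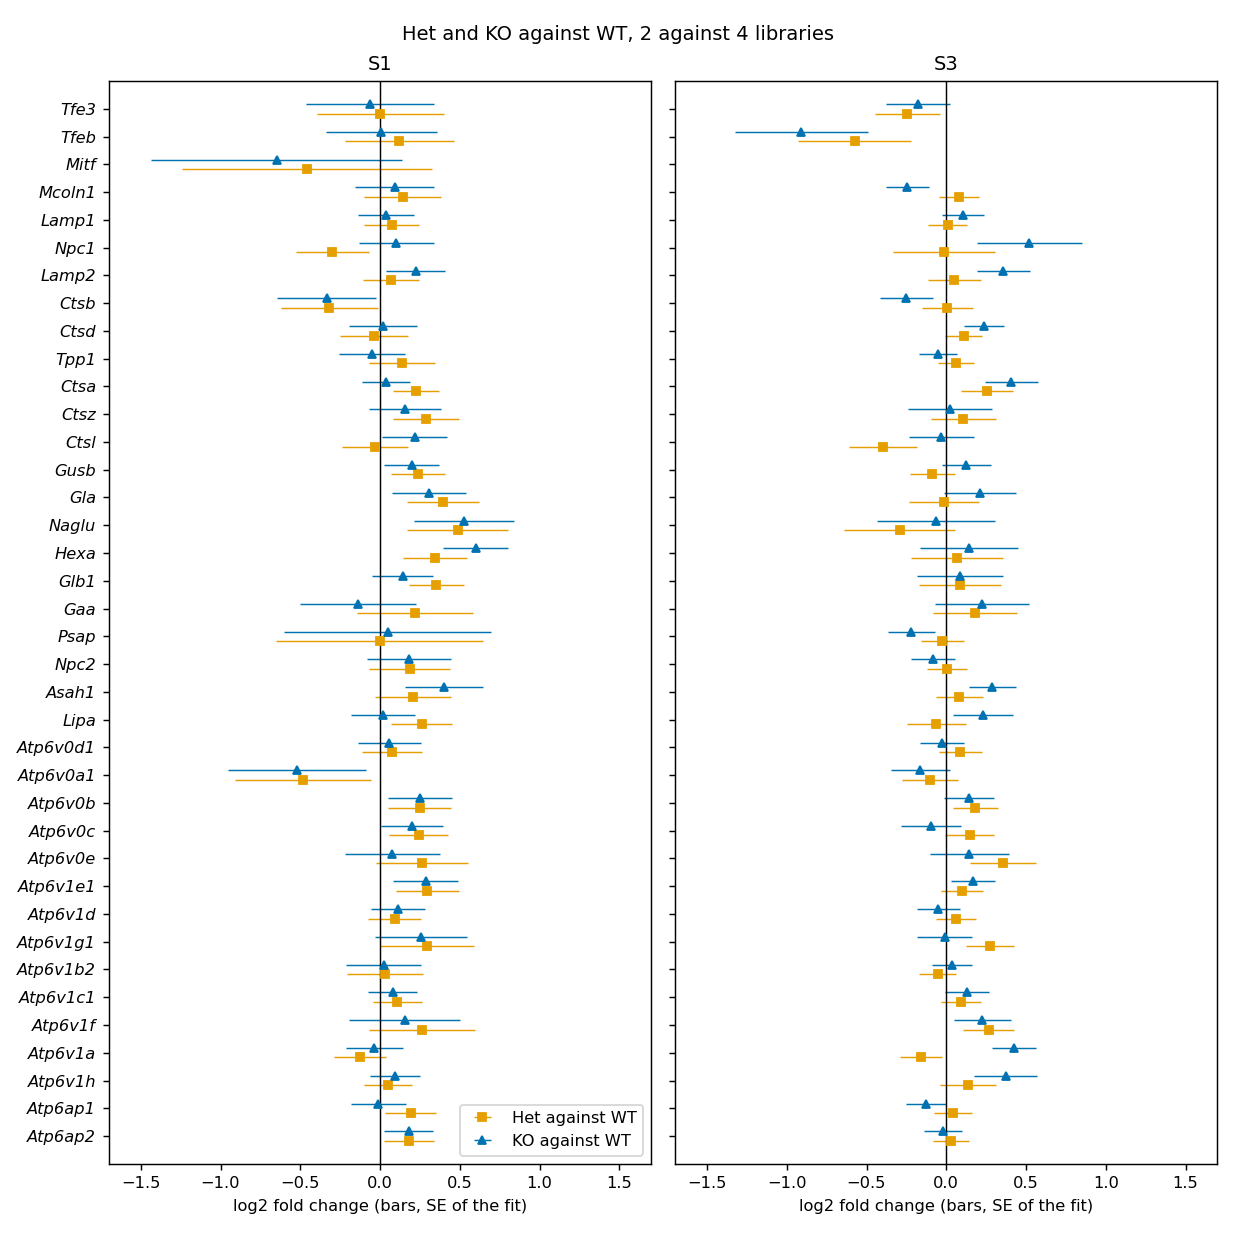
Log2 fold change (x axes) of each member in Het and KO against WT at S1 and at S3, with bars for the SE of fits of 2 against 4 libraries. No member passed an adjusted p of 0.05, and *Tfeb* at S3 lies at −0.91 in KO and −0.57 in Het.

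Whether the KO difference itself changed between the stages was tested as an interaction. It called 0 of 38 members, against 0.00742% of 13485 genes (edgeR, with 0 members called by DESeq2). Unadjusted p was under 0.05 for 0 members, against 420 of the 13485 genes (edgeR). The smallest p were those of *Atp6v1a* (0.46, SE 0.22), *Tfeb* (−0.92, SE 0.53) and *Ctsa* (0.37, SE 0.23) on the log2 scale, and *Tfe3* was at −0.11 (SE 0.49) and *Mitf* at 1.42 (SE 1.4). Without 1 embryo *Mitf* ran from 0.032 to 1.94.

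Other genes of the lysosome, from lists beside the 38, also changed in both directions at maturation. Their counts stand against 30.6% of all genes higher and 35.0% lower. Of 35 other hydrolases and activators tested in WT, 7 were higher and 21 lower at S3 (median log2 fold change −1.19). The largest rises were those of the cysteine proteases *Ctsf* (5.88, SE 0.42) and *Lgmn* (3.39, SE 0.33), and the largest falls those of *Manba*, β-mannosidase (−3.82, SE 0.25), and *Arsb*, arylsulphatase B (−3.35, SE 0.46). *Ctsf* went from 2.91 ± 1.83 to 169 ± 24.2 CPM (SD, n = 4). Of 26 other membrane proteins and transporters, 8 were higher and 13 lower, led by *Tpcn1*, a two-pore channel (2.697), and *Mcoln2* (2.07) and by *Cd63* (−4.34) and *Abca2* (−4.09). Of 12 assembly and interacting factors of the V-ATPase, 4 were higher and 6 lower, with *Ncoa7* (4.04) and *Wdr7* (1.98) at one end and *Dmxl2* (−3.86) and *Ccdc115* (−1.64) at the other.

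Of 12 genes for the delivery of hydrolases by the mannose 6-phosphate tag, 6 were lower at S3 and 1 was higher, *Vps35* of the retromer (0.74), against the same shares of all genes. *Gnptab*, which makes the tag, fell by 3.23 and *Sort1*, a sorting receptor, fell by 2.97. Of 18 regulators of TFEB and TFE3, 4 were higher and 7 lower, a division near that of all genes. *Rragd*, a Rag GTPase that brings these factors to mTORC1, rose by 5.31 (SE 0.52), from 0.606 ± 0.49 to 24.01 ± 6.87 CPM, and *Fnip2*, a partner of folliculin, rose by 1.79. *Tfec*, the remaining MiT gene, fell by 2.53 and *Map4k3* by 2.01. The shift with library totals given for the members applies to these values as well.

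In the genotype comparisons the lists held 2 called genes, both in KO at S3 and both proteases, of 99 genes tested there and against 0.559% of all genes. *Ctsf* was at 136.7 to 193.2 CPM in WT and at 58.5 and 74.7 CPM in KO (log2 fold change −1.33, SE 0.19, adjusted p = 0.033, edgeR). *Ctsh* was at 3.69 to 5.54 CPM in WT and at 1.02 in both KO libraries (log2 fold change −2.05, SE 0.31, adjusted p = 0.039). Het was at 123.3 and 174.7 CPM for *Ctsf*, overlapping WT, and at 1.75 and 2.86 CPM for *Ctsh*. The summed macrophage markers were at 24.1 and 45.5 CPM in the same KO libraries and at 53.1 to 115.4 CPM in WT, and their part in either difference was not tested.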

How the data were processed

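The authors mapped reads with STAR 2.7.9 to mm39 and made the deposited raw counts per gene with featureCounts 1.6.4 on the Ensembl annotation. Per the file headers, read pairs were counted without strand, and reads at several places or over several genes were left out. Of 55416 genes, 54749 matched a GENCODE M39 symbol. A further 4 library columns could not be tied to a sample and were not used.

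Genes with a mean normalized count over 10 were tested with edgeR 4.0.16 (TMM, quasi-likelihood, R 4.3.3) and adjusted by Benjamini-Hochberg over all genes, at a threshold of 0.05. Only the groups compared entered a fit. RPKM is TMM-scaled CPM per kilobase of the deposited gene length. Same-numbered libraries of S1 and S3 are from one embryo, per the titles, and their deviations correlated at 0.07 to 0.33 in WT, 0.41 in KO and 0.04 in Het, so the embryo entered 1 alternative as a block. Other alternatives were DESeq2 1.42.0, sex as a covariate, other filters and scalings, all 16 libraries in the fit, and each embryo left out. Library totals and edgeR's newer quasi-likelihood method were chosen after seeing the data. Promoters were read from GRCm39 in place of the RefSeq windows first planned, which are of an older build. Full values are given for the MiT factors, for the 5 largest rises and 5 largest falls that passed or, where none passed, the 3 smallest p, and in the other lists for the 2 largest rises and falls. Other members named were chosen after their values were seen. The members and lists were chosen with earlier results of these data known. Scripts were tested on simulated data.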

Additional observations from a re-analysis of the deposited data

Results flagged for a closer look

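In the groups of 4 WT libraries, 2 of 76 sets of member values (2.63%) held a library set apart from the others beyond the 95% critical value of Dixon's test, where chance gives about 1 in 20. *Ctsa* in WT embryo 8 at S3 was low, at 32.9 CPM against 45.5 to 47.7 in the other 3. *Atp6v1e1* in WT embryo 8 at S1 was low, at 119 CPM against 164 to 168, and without that embryo its log2 fold change from S1 to S3 was 2.08.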

How the results depend on the processing

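Of the 29 members called between the stages in WT, 22 were called without each embryo in turn, and the count without 1 embryo was 14 to 17 higher and 9 to 13 lower. The calls of *Lamp1*, *Gla*, *Naglu*, *Asah1*, *Atp6v1c1*, *Atp6v1h* and *Mitf* were lost without at least 1 embryo. The embryo as a block gave 18 higher and 13 lower, adding *Tfe3* and *Psap*, and changed no other call. Library totals, chosen after seeing the data, gave 9 higher and 22 lower. With them *Tfe3* was at −0.48, *Lamp1* at −0.66, *Npc1* at −0.73, *Tpp1* at −0.35, *Gusb* at −0.74, *Npc2* at −0.84, *Psap* at −0.0071, *Atp6v0e* at −0.82, *Atp6v1a* at −1.01, *Atp6v1b2* at −0.22, *Atp6v1c1* at −0.65, *Atp6v1f* at −0.84 and *Atp6v1g1* at −0.15 on the log2 scale. Upper-quartile scaling put *Npc2* at −0.0064, *Atp6v1a* at −0.16 and *Atp6v1f* at −0.013, and *Atp6v1a* was at −0.033 without a filter and ran from −0.042 to 0.13 without 1 embryo. In KO and Het no member passed without 1 embryo, and with sex as a covariate 1 member was higher in KO at S3 by each tool (2.41% of all genes by edgeR, 2.61% by DESeq2) and 5 by edgeR and 6 by DESeq2 in Het at S3 (8.84% and 9.97% of all genes). The cause was not tested.

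Some uncalled values of the transcription factors at S1 changed sign, among them *Mitf*, at −0.65 in KO and −0.46 in Het, which turned without embryo 1. Without 1 embryo KO ran from −0.18 to 0.13 for *Tfeb*, −0.27 to 0.25 for *Tfe3* and −0.92 to 0.23 for *Mitf*, and Het from −0.069 to 0.26, −0.21 to 0.29 and −1.02 to 0.42. In KO *Tfe3* was at 0.00028 with sex in edgeR and *Tfeb* at −0.0013 with all 16 libraries. In Het *Tfe3* was at −0.0093 with DESeq2, −0.37 with sex in DESeq2, −0.36 with sex in edgeR, −0.0035 without a filter, −0.013 with upper-quartile scaling and −0.092 with library totals, and *Mitf* was at 0.78 and 0.79 with sex. Groups of 2 embryos limit the genotype comparisons, and low counts limit *Tfeb*, *Mitf* and *Naglu*.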
